A study of Mus musculus with 7 samples.

Results

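The genes described here are 5 neighbors on proximal mouse chromosome 7: Cacng6, Cacng7 and Cacng8, which encode γ subunits related to those of voltage-gated calcium channels, Tnnt1, which encodes slow skeletal troponin T, and Cox6b2, which encodes an isoform of a cytochrome c oxidase subunit. They were chosen by symbol, out of 17404 genes in the expression table, because most of them had been seen to differ between the mouse strains BALB/cJ and BALB/cByJ. RNA-Seq was done on ventricles of P4 (postnatal day 4) neonates of these inbred sister strains, with no treatment, and the 7 libraries comprise 3 of BALB/cByJ and 4 of BALB/cJ, each from a pool of 3 to 4 hearts according to the labels. The study's own text gives a slightly larger pool in another place. The study used this comparison to look for expression differences behind the divergent cardiomyocyte ploidy of the strains. The strains descend from the same inbred BALB stock and have been bred apart for decades, so they may differ at many loci, and a difference between them cannot be assigned to any 1 locus. The labels do not give the sex of the pups in a pool.

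Troponin T anchors the troponin complex to tropomyosin on the thin filament of striated muscle, and with troponin I and the calcium sensor troponin C it makes contraction depend on calcium. Ventricular muscle uses the cardiac isoform encoded by Tnnt2, whereas Tnnt1 is the isoform of slow skeletal fibers and Tnnt3 that of fast fibers. The CACNG genes encode small membrane proteins that span the membrane several times. Cacng1 encodes a subunit of the skeletal muscle calcium channel and Cacng6 is its closest relative, while Cacng7 and Cacng8 belong to the TARPs, auxiliary subunits of AMPA-type glutamate receptors best known from brain. Cytochrome c oxidase (complex IV) is the last enzyme of the respiratory chain, and its subunit VIb is encoded by the widely expressed Cox6b1 or by Cox6b2, known as a testis isoform.

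The 5 genes lie within 1.42 Mb, from 3332027 to 4753094 on chromosome 7 of GRCm38, the build (mm10) that the submitters named. In RefSeq the order is Cacng7 (3332027 to 3368221), Cacng8 (3394042 to 3416266), Cacng6 (3423588 to 3435667), Tnnt1 (4504569 to 4515975) and Cox6b2 (4751792 to 4753094), with the CACNG genes on the plus strand and the others on the minus strand. Cacng8 stands 25.8 kb after Cacng7 and 7.32 kb before Cacng6. A stretch of 1069 kb then separates Cacng6 from Tnnt1, and 236 kb separate Tnnt1 from Cox6b2. No other RefSeq gene overlaps Cacng6, Cacng7, Tnnt1 or Cox6b2, and Gm23450 overlaps Cacng8. The members are thus not 1 continuous run of genes, and other genes lie between them.

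The 250 bases ahead of a gene start given by RefSeq are shown for the 4 members that were expressed, since these differed between the strains in the same direction, and for Tnni3, the gene next to Tnnt1. They are the RefSeq sequences of GRCm38.p6, which come from C57BL/6J, so any base at which the BALB strains differ is not in them. For Cacng7, Cacng6 and Tnni3 the start used is inside the outermost bounds of the gene. In the gene's orientation, 5′ to 3′, they lie at chr7:3332575-3332824 (Cacng7, plus strand), chr7:3424412-3424661 (Cacng6, plus), chr7:4515976-4516225 (Tnnt1, minus), chr7:4522529-4522778 (Tnni3, minus) and chr7:4753095-4753344 (Cox6b2, minus). Capitals mark matches on either strand. The letters searched were the TATA box TATAAA, the TEAD factor motif CATTCC, the E-box CAGCTG, the letters GATAA that cardiac zinc finger factors bind, the Krüppel-like factor motif CACCC, the NF-Y motif CCAAT, the Sp1 motif GGGCGG and, by its name alone, the MEF2 consensus. Matches to different motifs did not overlap.
Cacng7: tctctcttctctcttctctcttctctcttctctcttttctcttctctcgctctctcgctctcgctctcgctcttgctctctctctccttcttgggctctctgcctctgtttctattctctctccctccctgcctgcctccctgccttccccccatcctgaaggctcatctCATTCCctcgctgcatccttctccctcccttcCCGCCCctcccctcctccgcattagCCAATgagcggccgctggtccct
Cacng6: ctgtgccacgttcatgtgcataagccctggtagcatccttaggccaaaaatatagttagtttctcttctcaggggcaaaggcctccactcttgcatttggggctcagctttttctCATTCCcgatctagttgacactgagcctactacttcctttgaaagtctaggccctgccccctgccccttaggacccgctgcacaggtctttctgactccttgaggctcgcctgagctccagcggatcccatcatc
Tnnt1: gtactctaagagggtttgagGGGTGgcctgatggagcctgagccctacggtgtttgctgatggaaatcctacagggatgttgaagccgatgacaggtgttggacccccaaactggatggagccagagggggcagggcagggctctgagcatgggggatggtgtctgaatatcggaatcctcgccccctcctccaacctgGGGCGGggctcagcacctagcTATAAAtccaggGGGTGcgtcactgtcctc
Tnni3: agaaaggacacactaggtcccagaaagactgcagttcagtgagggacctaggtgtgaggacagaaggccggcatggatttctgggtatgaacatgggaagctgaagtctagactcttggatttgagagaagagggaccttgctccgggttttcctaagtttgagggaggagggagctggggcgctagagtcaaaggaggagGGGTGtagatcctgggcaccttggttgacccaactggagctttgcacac
Cox6b2: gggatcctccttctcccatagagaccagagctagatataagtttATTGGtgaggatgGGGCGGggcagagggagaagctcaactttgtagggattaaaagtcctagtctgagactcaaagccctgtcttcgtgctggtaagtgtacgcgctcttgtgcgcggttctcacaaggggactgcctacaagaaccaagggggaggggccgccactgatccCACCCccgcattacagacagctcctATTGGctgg

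No searched motif was found in all 4 members. The TATAAA of Tnnt1 begins 30 bases before the start and is absent from the other 3, and 12.4% of 32841 RefSeq promoters of the same length hold it. CATTCC stands in Cacng7 and in Cacng6, against 12.6% of all promoters. GGGCGG stands in Cacng7, Tnnt1 and Cox6b2 (32.7% of all promoters), CCAAT in Cacng7 and Cox6b2 (33.9%) and CACCC in Tnnt1 and Cox6b2 (52%). CAGCTG (13% of all promoters), GATAA (22.6%) and the MEF2 consensus (2.92%) had no match in any of the 4. Tnni3 held only CACCC. The GC content ran from 52.8% in Cacng6 to 59.2% in Tnnt1, between the quartiles of all promoters (45.2% and 61.2%, median 52.4%).

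The values are expression levels normalized for sequencing depth and transcript length, FPKM or TPM (not stated which), so levels can be compared between genes, but the number of reads behind a value is unknown and no counting interval can be given. Over all genes the values of a library summed to between 543023 and 628977, and 11815 to 11979 genes per library reached a value of 1. Zhx2 was at 5.47 to 7.98 in the BALB/cByJ libraries and at 0.25 to 0.51 in the BALB/cJ libraries, the direction given by the retroviral insertion known in this gene in BALB/cJ, and no library went against its label. The values of 4 Y-linked genes (Eif2s3y, Ddx3y, Uty, Kdm5d) summed to 80.2 to 128 in the BALB/cByJ pools and to 0.04 to 37.6 in the BALB/cJ pools with no overlap. The sex makeup of the pools may thus differ between the strains. The part of this difference in the results was looked at only as a covariate. Because the strains do not overlap in the Y-linked level, that fit extrapolates and cannot tell this level from strain. Nothing in the labels says whether pools of a strain came from separate litters, and the spread between libraries is that between pools.

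Tnnt1 had the highest level of the members. Its expression value was 98.8, 123 and 113 in BALB/cByJ libraries 1 to 3, and 33.4, 36.3, 28.5 and 37.3 in BALB/cJ libraries 1 to 4. The strains were far apart, the lowest BALB/cByJ library being 2.65 times the highest BALB/cJ library. The mean was 112 ± 12.3 (SD, n = 3) against 33.9 ± 3.95 (SD, n = 4), a ratio of 3.29. On the log2(value + 1) scale, which shrinks the fold of genes with low values, Tnnt1 was 1.69 higher in BALB/cByJ (standard error 0.12). All log2 fold changes are given on this scale, BALB/cByJ over BALB/cJ.

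Cox6b2 was at 27.6, 24.95 and 22.8 in BALB/cByJ libraries 1 to 3, and at 9.37, 8.29, 9.08 and 8.89 in BALB/cJ libraries 1 to 4. The BALB/cJ libraries were close to each other, with a coefficient of variation of 5.13%, the smallest of any expressed member in either strain, and the lowest BALB/cByJ library was 2.43 times the highest BALB/cJ library. The means were 25.1 ± 2.42 (SD, n = 3) and 8.91 ± 0.457 (SD, n = 4), with a ratio of 2.82 and a log2 fold change of 1.39 (standard error 0.10).

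Cacng6 was at 22.04, 20.06 and 23.10 in the BALB/cByJ libraries and at 7.94, 8.50, 10.96 and 9.83 in the BALB/cJ libraries. The strains did not overlap here either, and the lowest BALB/cByJ library was 1.83 times the highest BALB/cJ library. The means were 21.7 ± 1.54 (SD, n = 3) and 9.31 ± 1.36 (SD, n = 4), a ratio of 2.34 and a log2 fold change of 1.15 (standard error 0.12). With the level of Y-linked genes as a covariate the log2 fold change of Cacng6 was 0.96 (standard error 0.15), more than the spread between libraries below the value without it. Those of Tnnt1 (1.69), Cox6b2 (1.42) and Cacng7 (0.77) stayed within that spread. As the strains do not overlap in the Y-linked level, the fit cannot tell this level from strain for any of them.

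Cacng7 was expressed near the lower limit of what could be compared. It was at 4.04, 3.16 and 2.38 in the BALB/cByJ libraries and at 0.91, 2.15, 1.24 and 0.82 in the BALB/cJ libraries. The lowest BALB/cByJ library lay only 0.23 above BALB/cJ 2, the highest of its strain, so the strains were separate by a narrow margin. The means were 3.19 ± 0.831 (SD, n = 3) and 1.28 ± 0.607 (SD, n = 4), a ratio of 2.49 and a log2 fold change of 0.89 (standard error 0.18). Because of the low level this value depends on the added constant, and it was 1.32 with 0.1 in place of 1.

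Cacng8, between Cacng7 and Cacng6, was listed at 0 in 6 of the 7 libraries and at 0.06 in BALB/cByJ 3. It fell below the mean of 0.5 over the libraries required for a test, and no fold can be given. Genes that every cell uses, such as Actb, Gapdh and Tbp, were above 0 in all libraries (8 of 8 looked at). The member between the 2 expressed CACNG genes was thus at or near 0 in both strains.

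**Figure D1:**
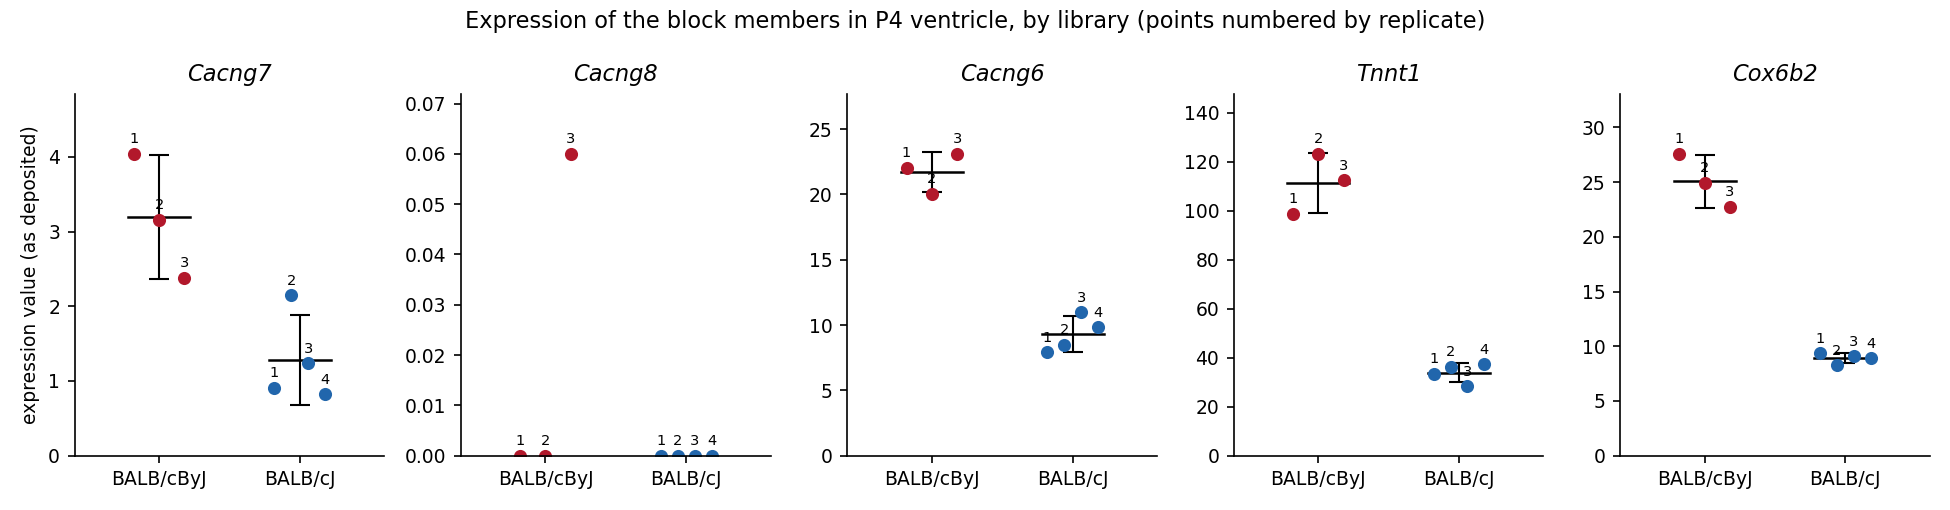
Expression value as deposited (vertical axes, each from 0) of the 5 members in every library, with points numbered by replicate within each strain, a line at the mean and bars of 1 SD (none drawn for Cacng8). In Tnnt1, Cox6b2 and Cacng6 the 3 BALB/cByJ points stand far above the 4 BALB/cJ points, in Cacng7 BALB/cByJ 3 (2.38) is just above BALB/cJ 2 (2.15), and Cacng8 is at 0 except for 0.06 in BALB/cByJ 3.

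In 4 of the 5 members, all that passed the filter on low values, each BALB/cByJ library lay above each BALB/cJ library. Of the 12715 genes tested, 4.33% were separated in this direction, but the members were chosen from this comparison, so no test is given for them and nothing is read from their count. For the same reason the following is a description. By log2 fold change Tnnt1 ranked 7, Cox6b2 14, Cacng6 20 and Cacng7 34 among the tested genes, counted from the largest increase in BALB/cByJ. By ratio of means the ranks were 14 for Tnnt1, 21 for Cox6b2, 29 for Cacng7 and 38 for Cacng6. The order of Cacng6 and Cacng7 thus depends on the measure. The 4 fold changes were themselves unequal, and that of Tnnt1 was the largest.

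In BALB/cByJ the order of levels was Tnnt1, Cox6b2, Cacng6, Cacng7 and Cacng8. Cox6b2 and Cacng6, neighbors in that order, overlapped (22.8 to 27.6 against 20.1 to 23.1). In BALB/cJ they overlapped as well, with Cacng6 having the higher mean. All other steps in the order were wider than the spread between libraries in both strains. Tnnt1 was the 755th most abundant gene of the table in BALB/cByJ and the 2447th in BALB/cJ, and Cox6b2 moved from rank 3140 to rank 6963.

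Within a strain the members did not all rise and fall together. Cacng7 and Cox6b2 ran in the same order over the BALB/cByJ libraries, but BALB/cJ 2 had the highest Cacng7 and the lowest Cox6b2 of its strain. BALB/cByJ 1 had the highest Cacng7 and Cox6b2 but the lowest Tnnt1, and BALB/cByJ 3 had the highest Cacng6 and the lowest Cacng7 and Cox6b2. In BALB/cJ, library 3 had the highest Cacng6 and the lowest Tnnt1. Deviations from the strain mean on the log2(value + 1) scale ran from -0.23 to 0.15 for Tnnt1, from -0.20 to 0.22 for Cacng6, from -0.13 to 0.14 for Cox6b2 and from -0.29 to 0.50 for Cacng7.

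The genes around the members were not called between the strains. Within 1 Mb of the block on either side, or inside it, the table lists 68 other genes, of which 43 were expressed highly enough for a test with limma on log2(value + 1). At an adjusted p under 0.05, the threshold for a call, 0 of the 43 were higher and 0 were lower in BALB/cByJ, against 0.771% and 0.881% of all genes tested, 1.65% in all. Without adjustment limma put 3 higher and 9 lower at a p under 0.05, against 5.06% and 13.3% of all genes, and together these are 27.9% of the neighbors against 18.3%. Since genes of this region that did differ had been taken as members, the absence of further calls follows in part from that choice. The median log2 fold change of the neighbors was -0.05, and that of all genes tested was -0.07. With quantile normalization the medians were 0.02 and -0.01, and with TMM scaling 0.01 and -0.01, so that both moved up together. Without BALB/cByJ 3 the median of the neighbors was -0.02.

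**Figure D2:**
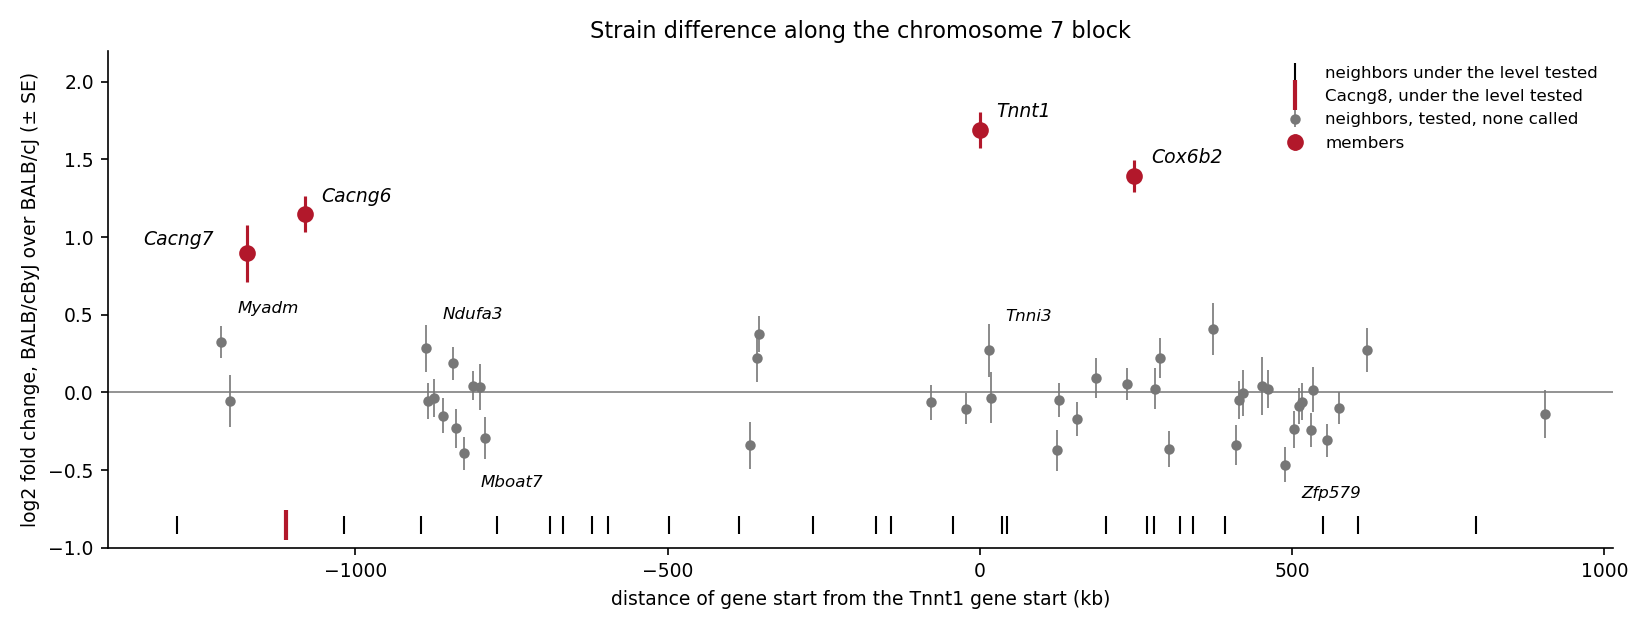
Log2 fold change of BALB/cByJ over BALB/cJ (vertical axis, on the log2(value + 1) scale, bars of 1 standard error) against the distance of each gene start from that of Tnnt1 in kb, with the members in red, tested neighbors in grey, and ticks at the bottom for genes under the level tested. The 4 expressed members, chosen for their strain difference, stand between 0.89 and 1.69, and the 43 tested neighbors lie between -0.46 and 0.41. That gap follows at least in part from the choice.

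Tnni3, which encodes cardiac troponin I, the inhibitory subunit of the troponin complex, lies 2.33 kb ahead of Tnnt1 on the same strand. Its expression value was 4219, 3899 and 5062 in the BALB/cByJ libraries and 3625, 3972, 3621 and 3290.1 in the BALB/cJ libraries, so that BALB/cByJ 2 lay below BALB/cJ 2. On the log2 scale Tnni3 differed by 0.27 (adjusted p = 0.403 in limma), with a 95% interval from -0.09 to 0.63. Tnnt1 lay above this interval, but it had been chosen for its strain difference. Relative to Tnni3 in the same library, Tnnt1 stood at 2.22% to 3.16% in BALB/cByJ and at 0.786% to 1.13% in BALB/cJ.

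On the other side of Tnnt1 the nearest tested gene was Ppp1r12c, a targeting subunit of myosin phosphatase, which differed by -0.10 (adjusted p = 0.602, 95% interval -0.31 to 0.11). Next to Cox6b2, the histone methyltransferase gene Kmt5c lies 4.28 kb away and differed by 0.05 (adjusted p = 0.806, 95% interval -0.16 to 0.27). Tmem238, which encodes a small membrane protein and is the nearest tested gene on the far side of Cox6b2, differed by 0.03 (adjusted p = 0.938). Between the CACNG trio and Tnnt1, the tested gene nearest to the trio was Ndufa3, a subunit of respiratory complex I, which differed by 0.29 (adjusted p = 0.328). No listed gene lies between the members of the trio.

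Between Cacng6 and Tnnt1 the table lists 28 genes, and 15 of them were tested. Their log2 fold changes lay between -0.39 and 0.38. Between Tnnt1 and Cox6b2, 7 of 10 genes were tested, with fold changes from -0.37 to 0.27. The neighbors nearest to a call, chosen after their values were seen, were both lower in BALB/cByJ. Zfp579, a zinc finger gene beyond Cox6b2, was at 4.77 ± 0.449 (SD, n = 3) against 6.97 ± 0.610 (SD, n = 4), on the log2 scale -0.46 (adjusted p = 0.0553), and it was called without BALB/cJ 2 or with a filter on a mean of at least 2. Mboat7, a lysophospholipid acyltransferase gene between Cacng6 and Tnnt1, was at 9.81 ± 1.05 (SD, n = 3) against 13.1 ± 0.685 (SD, n = 4), on the log2 scale -0.39 (adjusted p = 0.0815).

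Of the tested neighbors, 2 separated the strains with BALB/cByJ higher, and 7 with BALB/cByJ lower (4.33% and 12.6% of all genes tested did so). The pair with higher values in BALB/cByJ, also named after their values were seen, were Myadm, a myeloid-associated membrane protein gene ahead of Cacng7, at 149 ± 10.97 (SD, n = 3) against 119 ± 7.89 (SD, n = 4), and Cdc42ep5, which encodes an effector of the GTPase CDC42, at 13.4 ± 2.04 (SD, n = 3) against 10.1 ± 0.578 (SD, n = 4). In limma their log2 fold changes were 0.32 (adjusted p = 0.123) and 0.38 (adjusted p = 0.111). On the whole of chromosome 7, 959 genes other than the members were tested. Of these 9 were called, 3 higher and 6 lower in BALB/cByJ, against 1.65% of all genes tested. The nearest called gene, Wdr62, which encodes a spindle pole protein, starts 25.5 Mb beyond Cox6b2.

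The other subunits of the troponin complex, none of them encoded beside Tnnt1 except Tnni3, were not called. Of 7 troponin genes other than Tnnt1, all tested, 0 were called and 1, Tnni2 of fast muscle, reached an unadjusted p under 0.05 in limma (0.45 on the log2 scale, adjusted p = 0.264, 0.036 to 0.826 over the alternatives). Tnni2 was called only without BALB/cJ 3. Their median log2 fold change was 0.17, against -0.07 for all genes tested, but leaving out BALB/cByJ 3 brought it to 0.04, and leaving out BALB/cByJ 2 or BALB/cJ 3 to 0.26 or 0.27. Tnnt2, the cardiac troponin T, had a mean of 6185 ± 1105 (SD, n = 3) against 5566 ± 215 (SD, n = 4), on the log2 scale 0.14 (adjusted p = 0.718, 95% interval -0.26 to 0.53). Tnni1, the slow skeletal troponin I of fetal and newborn heart, had a mean of 1635 ± 83.9 (SD, n = 3) against 1369 ± 117 (SD, n = 4), on the log2 scale 0.26 (adjusted p = 0.327). Tnnc1, the slow and cardiac troponin C, differed by 0.17 (adjusted p = 0.64 in limma). Of all genes tested, 1.65% were called and 18.3% had an unadjusted p under 0.05. At that share lists as short as this and those below hold few calls or none, so nothing is read from a count of 0.

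Tnnt1 was a small part of troponin T in either strain. As a share of the summed values of Tnnt1, Tnnt2 and Tnnt3 it made up 1.62%, 2.32% and 1.504% in BALB/cByJ libraries 1 to 3 and 0.588%, 0.619%, 0.522% and 0.690% in BALB/cJ libraries 1 to 4. The means were 1.81% ± 0.443 (SD, n = 3) and 0.605% ± 0.0696 (SD, n = 4). Normalization for depth cancels in such a share. The strains stayed apart in it, which follows at least in part from the choice of Tnnt1 for its strain difference.

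Genes of slow muscle and fetal heart were not called either. Of 16 such genes, all tested, 0 were called and 4 in limma had an unadjusted p under 0.05, 2 in each direction. Of all genes tested 1.65% were called and 18.3% had an unadjusted p under 0.05, so no result is read from these counts. The median log2 fold change of the 16 was 0.17 against -0.07 for all genes, and 0.02 against -0.01 with quantile normalization. Casq2, the cardiac calsequestrin that stores calcium, had a value of 0.34 on the log2 scale (adjusted p = 0.15). Tpm3, the slow tropomyosin, differed by -0.28 (adjusted p = 0.183) and Acta1, the skeletal α-actin expressed in newborn heart, by -0.66 (adjusted p = 0.151, 0.0498 to 0.543 over the alternatives). Acta1 was called only without BALB/cJ 3.

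As Tnnt1 is abundant in slow skeletal muscle, markers of skeletal muscle were looked at in the dissected tissue. Of 26 markers of fast and embryonic skeletal fibers, 24 were in the table, 7 were tested and 0 were called, with 3 at an unadjusted p under 0.05 in limma. Of these 3, 2 were at lower values in BALB/cByJ, among them Myl1 (-0.54, adjusted p = 0.14 in limma), and Tnni2 was at higher values (0.45). The median log2 fold change of the 7 was -0.28 against -0.07 for all genes. It was -0.48 without BALB/cJ 1 and -0.09 without BALB/cJ 3. Without BALB/cJ 1 Myl1 was called, and without BALB/cJ 3 Tnni2. The summed level of the markers was 81.5 to 117 in BALB/cByJ and 93.6 to 209 in BALB/cJ, most of it from Casq1 and Myl1. The fiber type myosins Myh1, Myh2 and Myh4 were at 0.09 or less in every library except BALB/cJ 3 (0.74, 0.23 and 0.01), and the myogenic factors Myog, Myf5 and Myf6 did not exceed 0.21. BALB/cJ 3 also had the highest Tnnt3 (3.97 against 0.36 to 0.63 in the other BALB/cJ libraries), Tnnc2 and Mylpf, and it had the lowest Tnnt1 of all libraries. Without BALB/cJ 3, Tnnt1 differed by 1.61. The list is of fast and embryonic fibers, whereas Tnnt1 is the isoform of slow fibers. The part of skeletal muscle in the level of Tnnt1 was not tested.

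The chambers of the heart were looked at as well. The summed level of 8 ventricular myocyte markers was 41398 to 49531 in BALB/cByJ and 36606 to 40946 in BALB/cJ, with no overlap, and that of 6 atrial markers was 244 to 396 and 143 to 308. Most of the ventricular sum came from Myl2 and Myl3, and of the 8 genes only Myl3 separated the strains. Myh6 (-0.03) and Irx4 (-0.08) were at lower values in BALB/cByJ. The median log2 fold change of the 8 was 0.16, and -0.01 with quantile normalization. None of the ventricular or atrial markers was called by limma. The atrial natriuretic peptide gene Nppa had the smallest p (log2 fold change 0.80, adjusted p = 0.119, 0.00587 to 0.415 over the alternatives, called only without BALB/cJ 2), and 3 of the atrial and 0 of the ventricular markers had an unadjusted p under 0.05. Of these 3, Nppa and the atrial myosin light chain gene Myl4 (0.45, adjusted p = 0.214) were at higher values in BALB/cByJ and Nr2f2, an atrial transcription factor gene, at lower values (-0.32, adjusted p = 0.192). The median log2 fold change of the 6 atrial markers was 0.43 against -0.07 for all genes. Leaving out BALB/cByJ 1 brought it to 0.01, and leaving out BALB/cByJ 2 to 0.84. The part of these differences in those of the members was not tested, and in bulk tissue fewer cells of a type and less RNA per cell cannot be told apart.

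**Figure D3:**
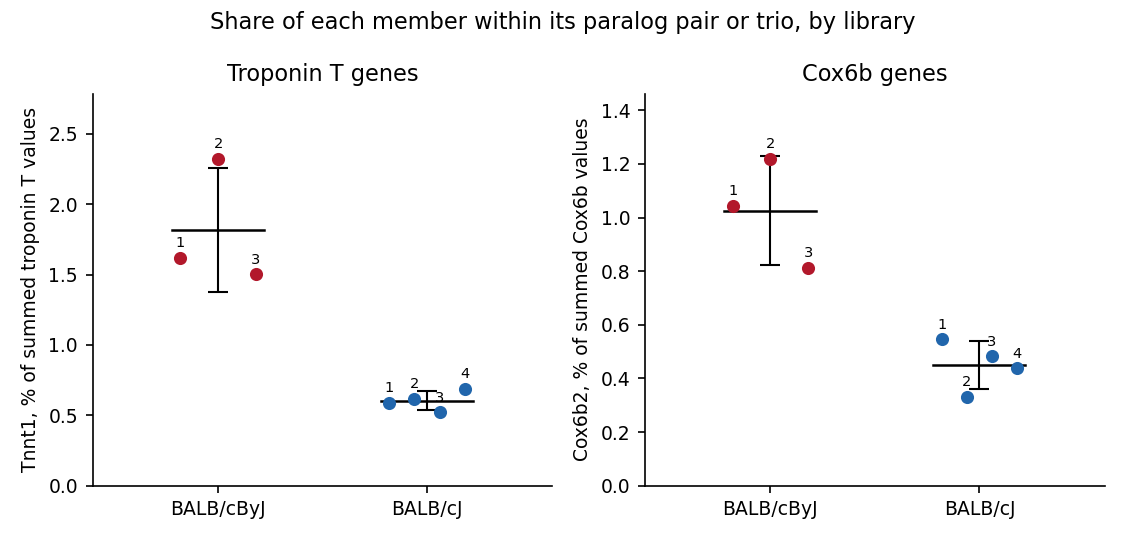
Tnnt1 as a percentage of the summed values of Tnnt1, Tnnt2 and Tnnt3 (left) and Cox6b2 as a percentage of Cox6b1 and Cox6b2 (right) in every library, numbered by replicate, with the mean and 1 SD. All BALB/cByJ points (1.504% to 2.32%, and 0.813% to 1.22%) stand above all BALB/cJ points (0.522% to 0.690%, and 0.332% to 0.547%). Both genes were chosen for their strain difference, and that gap follows at least in part from the choice.

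Cacng6 and Cacng7 were the only CACNG genes above 0.21 in any library of P4 ventricle. The 5 family members encoded elsewhere, Cacng1 to Cacng5, did not exceed 0.21 in any library and were not tested. Cacng6 made up 83.6% to 89.7% of the summed CACNG values in BALB/cByJ and 78.3% to 92.0% in BALB/cJ, so the makeup of the family overlapped between the strains. Cacng7 stood at 14.8% ± 4.10 (SD, n = 3) of Cacng6 in BALB/cByJ and at 14.1% ± 7.60 (SD, n = 4) in BALB/cJ.

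Of 18 genes for other subunits of voltage-gated calcium channels, 11 were tested and 0 were called by limma, with a median log2 fold change of -0.13 (-0.22 without BALB/cByJ 1) against -0.07 for all genes. The 2 at an unadjusted p under 0.05, Cacnb1 (-0.32, adjusted p = 0.198), the β subunit of skeletal muscle channels, and Cacna1g (-0.30, adjusted p = 0.218), were both at lower values in BALB/cByJ. Cacna1g encodes a T-type channel whose current the γ6 protein reduces in rat atrial myocytes. Cacna1c, the pore subunit of the cardiac L-type channel, had a mean of 18.96 ± 2.96 (SD, n = 3) against 21.1 ± 3.403 (SD, n = 4), with no call (adjusted p = 0.595). Relative to Cacna1c in the same library, Cacng6 stood at 102%, 103% and 147% in BALB/cByJ and at 39.4%, 50.9%, 46.6% and 40.9% in BALB/cJ.

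The receptors that TARPs accompany were scarce. Of 9 genes for AMPA receptors and their other auxiliary subunits, 3 were tested and 0 were called by limma at either an adjusted or an unadjusted p under 0.05. These were the receptor gene Gria3, at 1.09 ± 0.0950 (SD, n = 3) and 1.07 ± 0.132 (SD, n = 4), the cornichon gene Cnih2, with a log2 fold change of 0.25 (adjusted p = 0.319), and Gsg1l, with -0.10 (adjusted p = 0.671). Of 20 neuron and Schwann cell markers, 19 were in the table and 5 were tested, and 0 were called, with only Stmn2, a neuronal tubulin-binding protein gene, at an unadjusted p under 0.05 from limma (0.33, adjusted p = 0.192). Their summed level was 18.4 to 20.5 in BALB/cByJ and 18.3 to 20.9 in BALB/cJ, and the synaptic genes Snap25 and Syt1 did not exceed 0.14.

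None of the other nuclear subunits of complex IV that were tested was called. Of 16 nuclear complex IV subunits in the table, all tested, 0 were called and 1 reached an unadjusted p under 0.05 in limma. That gene, Cox7a1, the heart and muscle isoform of subunit VIIa, differed by 0.47 (adjusted p = 0.169). The median of the 16 was 0.15 against -0.07 for all genes, and with the Y-linked level as a covariate it was -0.08 against -0.12. It also depended on single libraries, since leaving out BALB/cByJ 1 or BALB/cJ 1 brought it to 0.06 or 0.05, and leaving out BALB/cByJ 2 to 0.27. Cox6b1, the other gene for subunit VIb, had a mean of 2471 ± 397 (SD, n = 3) against 2023 ± 339 (SD, n = 4), on the log2 scale 0.29 (adjusted p = 0.385, 95% interval -0.08 to 0.66). Of 22 complex IV assembly factors, 21 were tested and 0 were called, with 1, the copper chaperone gene Sco2, at an unadjusted p under 0.05 from limma (-0.30, adjusted p = 0.192).

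As a share of the summed Cox6b1 and Cox6b2 values, Cox6b2 made up 1.04%, 1.22% and 0.813% in BALB/cByJ and 0.547%, 0.332%, 0.482% and 0.438% in BALB/cJ. The strains did not overlap in this share, which follows at least in part from the choice of Cox6b2 for its strain difference. Of 15 testis-type isoforms and germ cell markers, 7 were in the table, and all but Sycp3, a component of the meiotic synaptonemal complex, stayed at 0.55 or less. Sycp3 was at 1.34 to 2.35 in BALB/cByJ and 0.71 to 1.83 in BALB/cJ (log2 fold change 0.41, adjusted p = 0.223).

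**Figure D4:**
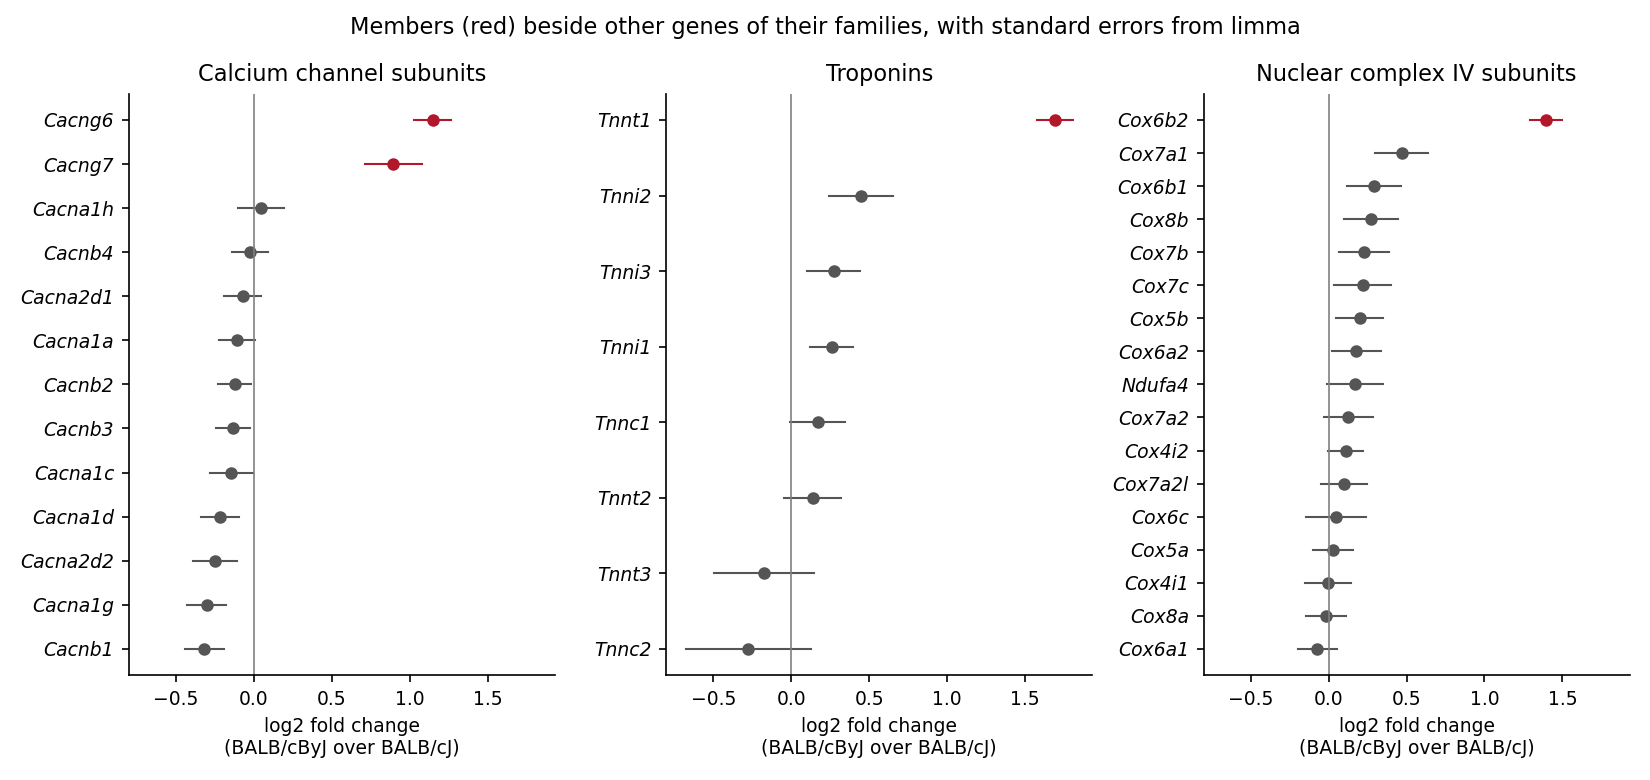
Log2 fold change of BALB/cByJ over BALB/cJ on the log2(value + 1) scale (horizontal axis, bars of 1 standard error) of the members in red and of the tested genes of 3 families in grey. Every grey gene lies to the left of the members of its panel, which follows at least in part from the choice of members for their strain difference. None of the grey genes was called.

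Genes on other chromosomes were closer in profile to each expressed member than any other member was, at least 3 of them for Tnnt1, Cox6b2 and Cacng7 and 2 for Cacng6. Likeness was the root mean square difference, over the 7 libraries, of log2(value + 1) centered on its mean, and since the strain difference dominates these profiles it is a description with no test. Nearest to Tnnt1 were Mid1 (0.17), a ubiquitin ligase gene on the X chromosome, Glo1 (0.18), the glyoxalase gene on chromosome 17, and Ppp1r1b (0.23), an inhibitor of protein phosphatase 1 on chromosome 11. Nearest to Cox6b2 were Srp54b (0.09), a signal recognition particle gene on chromosome 12, Glo1 (0.19) and Mid1 (0.20). Nearest to Cacng6 were Myoz1 (0.16), a Z-disc protein gene of fast skeletal muscle, Srp54b (0.19) and Ppp1r1b (0.22). Nearest to Cacng7 were Ly6a (0.16), Car4 (0.19) and Ly6c1 (0.20), which encode GPI-anchored surface proteins. Between members the difference was 0.20 for Cox6b2 and Cacng6, 0.25 for Cox6b2 and Tnnt1, 0.36 for Tnnt1 and Cacng6 and for Cacng6 and Cacng7, 0.38 for Cox6b2 and Cacng7, and 0.52 for Tnnt1 and Cacng7.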

How the data were processed

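RNA-Seq libraries of pooled ventricles (3 BALB/cByJ, 4 BALB/cJ) were made and sequenced by BGI Genomics. The authors deposited 1 table of signal values for 17404 genes, rounded to 2 decimals and normalized for depth and transcript length, with FPKM or TPM left unstated. The build was mm10 per the submitters' processing notes, and the aligner, counter and strand handling were not given in the sources used here. Reads per library were unknown, so the spread between pools was the only error.

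Strain was fitted as the only term with limma 3.58.1 (R 4.3.3, variance trend) on log2(value + 1). This used 12715 genes whose mean reached 0.5, with Benjamini-Hochberg adjustment over all of them and calls at an adjusted p under 0.05. The fit was tested on simulated data, and as the table holds no counts no count test was run. Members and gene lists were chosen with earlier results of these data known, so the members carry no p-value. Positions and promoters came from RefSeq (GRCm38.p6), with 17289 genes matched by ID.

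Named genes were the members, neighbors called or adjacent, Tnni3, up to 3 genes of smallest p per list (all in lists of up to 8) and the 3 nearest profiles per member. The result of 1 of these genes is not reported here. Others named for their values are marked in the text or serve as markers. Alternatives were a pseudocount of 0.1, other filters, quantile and TMM scaling, other windows, a replicate block and leaving out each library. A covariate for the level of Y-linked genes was added after seeing the data. Summaries used pandas 2.3.3, numpy 2.4.6, matplotlib 3.10.9 and Python 3.11.15.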

Additional observations from a re-analysis of the deposited data

Results flagged for a closer look

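Among 61 genes looked at for a BALB/cJ library far from the other 3, 5 had one, and chance flags about 1 in 20. Tnnt3 was at 3.97 in BALB/cJ 3 against 0.36 to 0.63 in the other BALB/cJ libraries, and Tnnc2 at 3.73 in the same library against 0 to 0.15; both are fast skeletal muscle troponins. Sco2 was also highest in BALB/cJ 3, at 6.95 against 5.48 to 5.67. Myh6, the α-myosin heavy chain of heart, was at 4912.61 in BALB/cJ 1 against 1940.3 to 2407, and Casq2 was at 547.08 in BALB/cJ 2 against 484 to 495. No member was among them.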

How the results depend on the processing

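The log2 fold changes of the 4 expressed members kept their direction under all settings run. Leaving out each library in turn gave 1.61 to 1.78 for Tnnt1, 1.33 to 1.46 for Cox6b2, 1.08 to 1.22 for Cacng6 and 0.75 to 1.06 for Cacng7. A value moved by more than the spread between libraries for Cacng7 with a pseudocount of 0.1 (1.32) and for Cacng6 with the Y-linked level as a covariate (0.96); the cause was not tested. No neighbor was called higher under any setting (0 to 0 with libraries left out). The count of neighbors called lower was 0, but 1 with a filter on a mean of at least 2 (Zfp579), 1 with quantile normalization (Ube2s), and 0 to 1 with libraries left out (Zfp579 without BALB/cJ 2); windows of 2 Mb or the span alone gave 0. Over all genes, 210 were called, against 39 with no filter, 46 with the Y-linked covariate, 58 with the replicate block and 64 to 186 with libraries left out. The split of higher and lower calls was 98 and 112, but 108 and 49 with quantile normalization and 136 and 59 with TMM scaling. Of 788 alternative values of 57 other named genes, 736 stayed on their side of the threshold, 48 lost and 4 gained a call, and 0 called values changed sign.

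The labels do not say that replicate numbers pair the samples. Deviations from the strain means correlated at -0.19, -0.26 and -0.05 between libraries with the same number. Between libraries with different numbers they correlated at -0.18 to 0.39. No pairing by number was seen, but these few values cannot exclude it. With the replicate block (6 libraries) the log2 fold changes were 1.74 for Tnnt1, 1.39 for Cox6b2, 1.175 for Cacng6 and 0.80 for Cacng7, and 0 neighbors were called.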

Other observations

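Of the 25 genes near the members that were under the level tested, 2 separated the strains, both with BALB/cByJ higher, and they are named after their values were seen. Syt5, which encodes a synaptotagmin of secretory vesicles and lies 35.2 kb from the Tnnt1 gene start, was at 0.40, 0.69 and 0.36 in the BALB/cByJ libraries and at 0.27, 0.24, 0.19 and 0.15 in the BALB/cJ libraries. Oscar, which encodes an immunoglobulin-like receptor of osteoclasts and lies between Cacng6 and Tnnt1, was at 0.21, 0.14 and 0.34 against 0.13, 0.09, 0.05 and 0.10. With no filter on low values limma gave an adjusted p of 0.167 for Syt5 and 0.221 for Oscar, so neither was called.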
